A study of Homo sapiens with 9 samples.

Results

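The 3 libraries numbered replicate 3 were compared with the 3 numbered replicate 1, 1 of each from every condition, so that 6 of the 9 libraries of the series formed the contrast. The members were chosen by the number in the library title alone, without any measured value. All libraries came from MDA-MB-231, a triple-negative, mesenchymal human breast cancer line. Replicates 1, 2 and 3 were available for each of 3 stable lines of these cells. The shNT line carried a non-targeting short hairpin RNA and was the 1 control clone. The shGLO1#1 and shGLO1#2 lines were 2 clones with hairpins against GLO1, the glyoxalase that removes methylglyoxal, a reactive by-product of glycolysis. No further treatment is named in the labels, and each line is a single clone. The replicates are described as biological, but what a number stands for (a passage, a day or a preparation) is not given. The libraries are therefore named here by number only, and p-values measure the spread between these samples.

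Cultured cells change their messenger RNA with density, time since feeding and growth rate. Proliferating cells make the DNA replication machinery under E2F control and build ribosomes in the nucleolus, YAP with TEAD drives genes that respond to cell spreading and tension, and heat shock factor and mitogen signalling switch chaperones and immediate early genes on and off within minutes. These programmes were taken as gene lists, and the comparison shows which of them differed with the replicate number in all 3 lines and which did not. The comparison and the lists were chosen with earlier results of these data known. Shares of list members called, set beside those of all genes, are therefore descriptive. Levels are given as CPM, counts scaled to library size with TMM factors in edgeR. A log2 difference is that of replicate 3 relative to replicate 1 with condition as a block, followed by its standard error (SE). The test was edgeR's quasi-likelihood test, and genes with a Benjamini-Hochberg adjusted p under 0.05, over the 13704 genes tested, are the called ones.

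The 9 libraries held 15314238 to 18495576 counts on genes. In every condition, replicate 1 had the highest share of alignments that fell on more than 1 gene, at 1.955% in shNT, 1.724% in shGLO1#1 and 1.917% in shGLO1#2, against 1.504 to 1.752% in the other 6 libraries. The labelled cell line was checked against its markers. VIM, encoding vimentin, stood at 3020 to 4380 CPM, and the receptor genes ESR1 and PGR did not exceed 0.432 and 0.247 CPM. GLO1 was at 312 to 323 CPM in shNT, 64.2 to 65.9 CPM in shGLO1#1 and at most 15.5 CPM in shGLO1#2. It did not differ detectably between the numbers (log2 difference -0.01, SE 0.05, adjusted p = 0.936).

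Many genes differed between replicate 3 and replicate 1, nearly all of them by little. Of the genes tested, 689 were higher in replicate 3 (5.03%) and 712 were lower (5.2%), and the median absolute log2 difference of the called genes was 0.289. An absolute log2 difference of 1 was also passed by 27 genes, 5 higher and 22 lower (0.197%), and by 8 without shGLO1#2 replicate 1, 9 without shGLO1#2 replicate 3, 17 without shGLO1#1 replicate 3 and 57 without shGLO1#1 replicate 1. The count of called genes depended on single libraries. It was 323 without shGLO1#2 replicate 1, 231 without shGLO1#2 replicate 3, 541 without shNT replicate 3, 648 without shGLO1#1 replicate 3 and 2280 without shGLO1#1 replicate 1, and 187 of the 1401 genes were called in each of the 9 fits that left out 1 library. A fit with no term for condition called no gene by edgeR (475 at an unadjusted p under 0.05). Such a fit counts differences between the lines as spread, and 6267 and 5221 genes were called for shGLO1#1 and shGLO1#2 against shNT. It therefore says little about the replicate difference. Genes called higher made up 49.2% of the calls, and 63.7% once the trend of each library with GC content and transcript length was removed (1050 higher, 599 lower).

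The 3 lines shared the differences unequally. Among the called genes, 683 of 689 higher and 690 of 712 lower genes had the same sign in all 3 conditions, against 44.3% of all genes tested. This count leans on the selection itself, since the common fit favours genes that move alike in the conditions. Genes called in 2 conditions were therefore read in the third, where 48.8 to 50.3% of all genes were above 0. Of genes called without shNT, 92.2% of 306 higher and 83.1% of 267 lower genes kept their direction in shNT. Of genes called without shGLO1#1, 88.3% of 745 higher and 77.1% of 904 lower genes kept it in shGLO1#1, where their median differences were only 0.146 and -0.12. Without shGLO1#2 just 34 genes were called, and all kept their direction in that clone. Across genes, the within-condition log2 ratios correlated by 0.314 between both shGLO1 clones, by 0.273 between shNT and shGLO1#2 and by 0.116 between shNT and shGLO1#1 (Pearson's r over 13704 genes, which are not independent).

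The likeness was mostly that of the libraries numbered 3. Deviations of a library from its condition mean correlated by 0.25, 0.309 and 0.341 between the 3 pairs of replicate 3 libraries. For replicate 1, the pair of shNT and shGLO1#1 gave -0.0339, and the other 2 pairs gave 0.21 and 0.197. For replicate 2 the values were 0.0558, 0.185 and 0.0691. Only the libraries numbered 3 thus correlated over 0.1 in every pair of lines. Deviations from a common mean of 3 libraries are tied to each other within a condition, so these values are descriptive.

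Replicate 2 lay between the other numbers for most called genes. Its mean log2 CPM over the 3 conditions fell between those of replicates 1 and 3 for 617 of the 689 higher genes (89.6%). The same held for 614 of the 712 lower genes (86.2%), against 45.9% of all genes. Choosing genes for a gap between replicates 1 and 3 favours this position, so no test was made of it. The median place of replicate 2, as a share of the way from replicate 1 to replicate 3, was 0.406 for higher and 0.368 for lower genes. Set side by side, and with libraries in common, replicate 2 against replicate 1 gave 44 called genes (6 higher and 38 lower, 0.321%) and replicate 3 against replicate 2 gave 354 (199 higher and 155 lower, 2.58%). Both counts hung on single libraries. The first was 682 without shGLO1#1 replicate 1, 225 without shGLO1#1 replicate 2, 8 to 17 without shNT replicate 2 or any replicate 3 library, and 1 without shGLO1#2 replicate 1 or 2. The second was 805 without shGLO1#1 replicate 1, 159 without shGLO1#2 replicate 2, 43 without shNT replicate 2, and 16 to 76 without any of the replicate 3 libraries. On the first principal component of the deviations (29.3% of their variance), replicate 1 libraries lay at -16.8 to -5.96, replicate 2 libraries at -4.26 to 2.83 and replicate 3 libraries at 10.2 to 15.3.

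The leading genes, ranked by the smallest of the 3 within-condition differences, were mostly expressed at low levels. FLG, encoding the skin barrier protein filaggrin, was at 3.56 CPM in shNT, 4.26 CPM in shGLO1#1 and 3.11 CPM in shGLO1#2 of replicate 1, and at 7.70, 7.64 and 9.31 CPM in the same lines of replicate 3. The groups did not overlap, and the log2 difference was 1.16 (SE 0.19, adjusted p = 0.002). ABCA1, the transporter that exports cholesterol, differed between lines and yet was higher in replicate 3 in each, from 14.4 to 28.1 CPM in shNT, from 74.0 to 119 CPM in shGLO1#1 and from 18.4 to 27.9 CPM in shGLO1#2. Its log2 difference was 0.73 (SE 0.07, adjusted p = 3.55e-05). IBA57, a factor of iron-sulfur cluster assembly, was higher by 0.67. All 3 of these genes were called whichever library was left out.

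Among the leading lower genes, NYAP1, a neuronal adaptor of phosphoinositide 3-kinase, had the largest difference (-1.81, SE 0.34). It was at 2.42, 1.48 and 1.28 CPM in replicate 1 and at 0.443, 0.684 and 0.310 CPM in replicate 3, in the order shNT, shGLO1#1, shGLO1#2. The long noncoding RNA LINC01021 stood at 2.42, 4.07 and 2.38 CPM in replicate 1 and at 0.664, 1.82 and 1.37 CPM in replicate 3. Its difference of -1.21 (SE 0.23, adjusted p = 0.003924) was called in all 9 fits. DUSP8, a phosphatase of the stress kinases JNK and p38 (-1.07), FEZF1, a zinc finger transcription factor (-1.11), and CDKN1C, the cell cycle inhibitor p57 (-1.01), were also lower. The call of NYAP1 was lost without shNT replicate 3 (adjusted p = 0.0551), that of DUSP8 without the same library (adjusted p = 0.0748), and that of FEZF1 without shGLO1#2 replicate 3 (adjusted p = 0.0678). CDKN1C lost its call without shGLO1#1 or shGLO1#2 replicate 3. Some leading genes could not be assigned with certainty. SNORD28 and SNORD99 are small RNAs inside host genes, ITGB2-AS1 overlaps ITGB2 on the other strand, and FAM86HP and CTGLF12P have close copies.

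**Figure D1:**
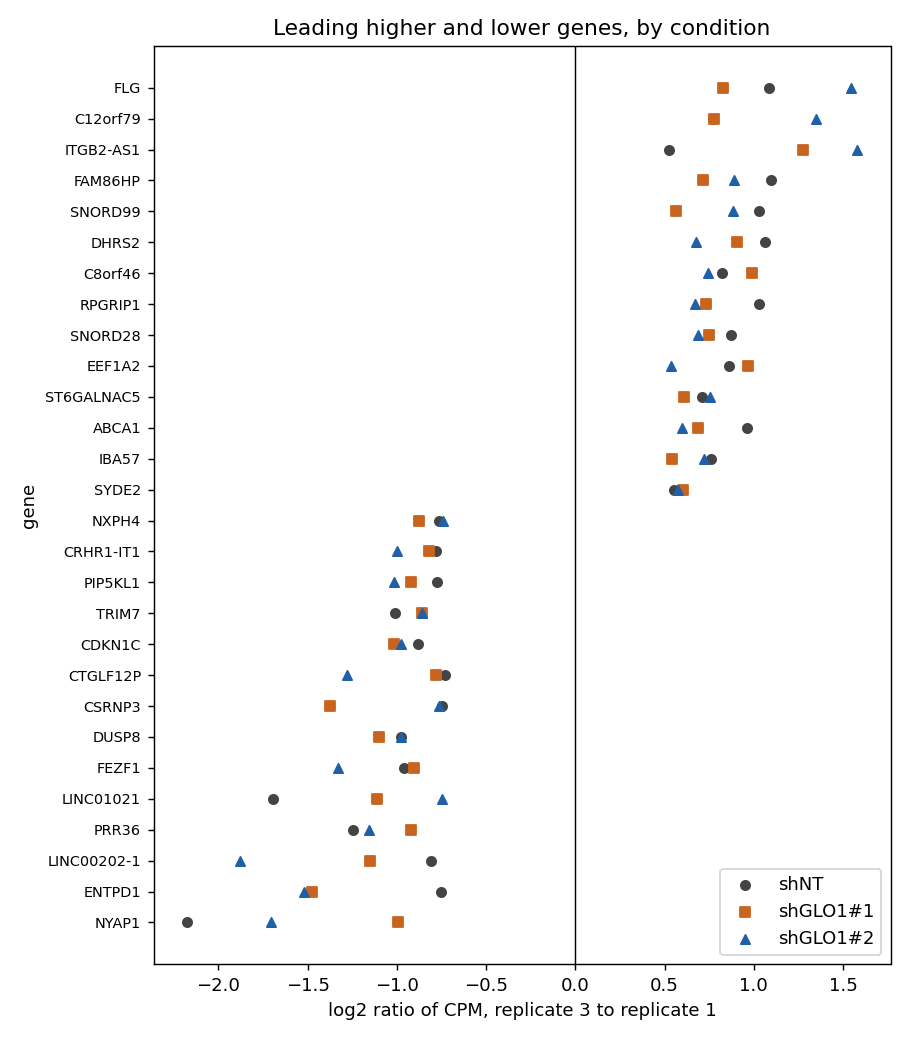
The log2 ratio of CPM of replicate 3 to replicate 1 is plotted on the x axis for the leading higher and lower genes reported here, ordered by the fitted difference, with 1 point for each condition. Every gene keeps its side of 0 in all 3 conditions because the genes were chosen so, and the spread between conditions differs, with LINC01021 reaching from -1.70 to -0.75 and SYDE2 from 0.55 to 0.60.

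Genes of S phase and DNA replication were higher in replicate 3. Of 30 list members tested, 20 were called higher and 0 lower, against 5.03% of all genes, and the median log2 difference was 0.244, against -0.00828 over all genes. The median was 0.204 in shNT, 0.258 in shGLO1#1 and 0.27 in shGLO1#2, and 26 members were above 0 in every condition. RRM2, the small subunit of ribonucleotide reductase, which makes deoxyribonucleotides, was at 203, 210 and 197 CPM in replicate 1, at 245, 231 and 242 CPM in replicate 2 and at 274, 261 and 266 CPM in replicate 3 (shNT, shGLO1#1, shGLO1#2). Replicates 1 and 3 did not overlap, and the log2 difference was 0.39 (SE 0.05, adjusted p = 0.0002155). CCNE2, a cyclin that starts S phase, was higher by 0.53 (SE 0.07), with levels up to 41.5 CPM in replicate 1 and 65.5 CPM in replicate 3. CDC6, which loads the replicative helicase, was higher by 0.42 (SE 0.06). These 3 genes were called in every fit that left out 1 library, while GINS3, a subunit of the active helicase (0.38), was called in 5 of the 9. The list count was 9 without shGLO1#2 replicate 3, 11 without shGLO1#2 replicate 1 and 2 without all shGLO1#2 libraries. Over all genes, 121, 176 and 20 were called higher in these fits, against 689 in the main fit.

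Of 26 list members with a promoter in the RefSeq table (build GRCh38.p14), 12 held an E2F-type motif in the 250 bases before the start, against 4.48% of 10865 tested genes with a promoter there. Among called members 9 of 17 held it, as did 7.71% of all genes called higher. The letters searched were TTTCCCGC, TTTCGCGC, TTTGCCGC and TTTGGCGC on both strands, where neighbouring matches can overlap. PCNA, the sliding clamp of DNA polymerase, and MCM6, a helicase subunit, are shown as list members whose promoters hold the motif, chosen after their values were seen, with the motif in capitals. PCNA was higher by 0.30 (SE 0.04, adjusted p = 0.0007618) and MCM6 by 0.26 (SE 0.05, adjusted p = 0.002812). The PCNA window is chr20:5126623-5126872 and the MCM6 window chr2:135876444-135876693, both on the minus strand and ending just before the start. A match describes the letters and shows no binding.
PCNA: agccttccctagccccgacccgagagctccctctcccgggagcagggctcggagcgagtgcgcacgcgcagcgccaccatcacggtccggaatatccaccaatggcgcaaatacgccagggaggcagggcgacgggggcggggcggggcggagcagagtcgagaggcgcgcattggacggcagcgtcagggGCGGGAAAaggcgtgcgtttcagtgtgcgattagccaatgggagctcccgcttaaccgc
MCM6: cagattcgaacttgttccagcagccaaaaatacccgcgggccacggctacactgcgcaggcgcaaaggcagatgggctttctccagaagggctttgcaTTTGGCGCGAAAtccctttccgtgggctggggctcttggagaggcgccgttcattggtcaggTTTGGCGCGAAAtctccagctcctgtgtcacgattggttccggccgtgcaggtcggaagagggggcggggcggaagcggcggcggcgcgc

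Of 30 G2 and mitosis genes, 6 were called higher (20%, against 5.03% of all genes) and 0 lower. The count was 3 with the 6 libraries alone, and 0 of the 6 were called in all 9 fits that left out 1 library. The list median was 0.0729, and in shGLO1#1 it was 0.00759. KIF23, a motor of cytokinesis, and CDCA8, of the chromosomal passenger complex, were higher by 0.21 and 0.20. Both calls were lost without shNT replicate 3 or without either shGLO1#2 library of the contrast. Only 15 of 59 listed replication-dependent histone genes passed the filter on counts, so most of that list was not tested. None of the 15 was called by edgeR or by DESeq2 (0 at an unadjusted p under 0.05 in edgeR), and their median was -0.0713.

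Ribosome biogenesis genes were also higher in replicate 3. Of 31 genes for nucleolar and ribosome assembly factors, 19 were called higher (61.3%, against 5.03% of all genes) and 0 lower. The list median was 0.246 (0.175 in shNT, 0.236 in shGLO1#1 and 0.321 in shGLO1#2). NOP58, a core protein of the box C/D small nucleolar ribonucleoproteins, was at 72.7, 68.9 and 75.5 CPM in replicate 1 and at 93.6, 84.7 and 106 CPM in replicate 3. The groups did not overlap (log2 difference 0.38, SE 0.05, adjusted p = 0.0007545). WDR43, of the small subunit processome, was higher by 0.46 (SE 0.06), and MRTO4, which assembles the large subunit, by 0.39 (SE 0.06). All 3 were called in each of the 9 fits, whereas RRS1 (0.36) lost its call without shGLO1#1 replicate 3 or either shGLO1#2 library. The list count was 7 without shGLO1#2 replicate 1, 7 without shGLO1#2 replicate 3 and 12 without shGLO1#1 replicate 3. It was 1 without all shGLO1#2 libraries. Genes called higher over the whole set numbered 176, 121, 295 and 20 in these fits, in that order. SNHG1 (0.36) and SNHG15 (0.45), whose introns carry small nucleolar RNAs, were higher as well. Of the 56 ribosomal protein genes only RPS27A was called (0.15), which is 1.79% of that list, and the list median was 0.0385. The MYC-type E-box CACGTG was found in 1 of 26 ribosome biogenesis promoters, against 8.81% of tested genes.

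YAP and TEAD targets were in part higher, with larger medians in the GLO1-depleted clones. Of 24 members, 13 were called higher (54.2%, against 5.03% of all genes) and 0 lower. The median of 0.169 was made up of 0.0608 in shNT, 0.268 in shGLO1#1 and 0.207 in shGLO1#2. Whether the lines differed was not tested. CTGF, a secreted matricellular protein and standard YAP readout, was at 154, 213 and 184 CPM in replicate 1 and at 181, 260 and 263 CPM in replicate 3. The ranges overlapped across lines, but each line was higher in replicate 3 (log2 difference 0.35, SE 0.05, adjusted p = 0.001395). AMOTL2, a YAP-binding junction protein, and ASAP1, a regulator of ARF GTPases, were higher by 0.34 and 0.33, and these 3 genes were called in all 9 fits. F3, encoding tissue factor, had differences of 0.04 in shNT, 0.58 in shGLO1#1 and 0.54 in shGLO1#2, and its call was lost without shGLO1#1 replicate 3 or either shGLO1#2 library of the contrast. The list count was 3 without shGLO1#1 replicate 3, 3 without shGLO1#2 replicate 3 and 4 without shGLO1#2 replicate 1. It was 0 without all shGLO1#2 libraries. Genes called higher over the whole set numbered 295, 121, 176 and 20 in these fits, in that order.

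The TEAD core GGAATG was present, on either strand, in 6 of 19 list promoters, against 9.5% of tested genes. Among called members 3 of 10 held it, as did 9.81% of all genes called higher. The 250 bases before the CTGF start (RefSeq symbol CCN2, chr6:131951373-131951622, minus strand) are shown because they hold it 3 times, in capitals.
CTGF: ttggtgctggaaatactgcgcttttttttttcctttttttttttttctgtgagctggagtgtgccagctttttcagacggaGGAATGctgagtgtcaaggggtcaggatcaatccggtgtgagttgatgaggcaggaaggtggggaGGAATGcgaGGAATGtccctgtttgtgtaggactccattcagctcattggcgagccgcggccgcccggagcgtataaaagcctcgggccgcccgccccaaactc

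THBS1, a matrix glycoprotein that YAP and TGF-beta also induce, was called in all 9 fits. It was at 320, 544 and 669 CPM in replicate 1 and at 476, 722 and 1005 CPM in replicate 3, a log2 difference of 0.52 (SE 0.05, adjusted p = 4.223e-05). Of 17 SMAD target genes 3 were called higher (17.6%, against 5.03% of all genes) and 1 lower (5.88%, against 5.2%), and the median was 0.0036. Among mesenchymal markers of the line, CAV1 (0.26), CAV2 (0.30), EGFR (0.24) and CD44 (0.15) were called higher and 0 of 14 lower. None of these 4 was called in every fit that left out 1 library. They made up 28.6% of the list, against 5.03% of all genes. The list as a whole was split, with 7 members above 0 and 7 below. Its median was 0.0228 (-0.0473 in shNT, 0.137 in shGLO1#1 and 0.00756 in shGLO1#2).

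Part of the heat shock chaperones were lower in replicate 3. Of 23 members 9 were called lower and 0 higher, against 5.2% of all genes, with a median of -0.104 (-0.124 in shNT, -0.105 in shGLO1#1 and -0.138 in shGLO1#2). HSPA1B, an inducible HSP70, was at 96.6, 68.9 and 61.3 CPM in replicate 1, at 101, 70.9 and 57.4 CPM in replicate 2 and at 61.1, 48.6 and 36.7 CPM in replicate 3. Its difference was -0.63 (SE 0.06, adjusted p = 3.55e-05), and it was called in all 9 fits. HSPA1A, a near-identical copy whose reads may be divided between both genes, differed by -0.47, a call that was lost without replicate 1 or 3 of shNT or shGLO1#2 and with the GC and length trend removed (adjusted p = 0.0538). HSPB1, the small chaperone HSP27, differed by -0.38 (SE 0.06), and by -0.23 once the GC and length trend was removed. The list count was 3 without shGLO1#2 replicate 3 and 1 without all shGLO1#2 libraries. Over all genes, 110 and 14 were called lower in these fits, against 712 in the main fit.

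Replicate 2 did not lie between the others for this list. Its median difference from replicate 1 was 0.0537, and that of replicate 3 from replicate 2 was -0.173. HSPA1B did not differ detectably between replicates 2 and 1 (0.01, adjusted p = 0.9793) and was lower in replicate 3 than in replicate 2 (-0.64, adjusted p = 4.22e-05). The paired half-sites of the heat shock element, searched as GAANNTTC, were found in 9 of 21 list promoters, against 4.22% of tested genes. Among called members 5 of 9 had a match, as did 3.57% of all genes called lower. The HSPA1B window (chr6:31827488-31827737, plus strand) is shown with its match in capitals.
HSPA1B: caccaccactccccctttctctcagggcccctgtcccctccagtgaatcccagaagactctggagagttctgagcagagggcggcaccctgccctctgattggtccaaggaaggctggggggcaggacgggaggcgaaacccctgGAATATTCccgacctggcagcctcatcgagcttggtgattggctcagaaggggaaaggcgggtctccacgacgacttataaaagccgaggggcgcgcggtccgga

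Some immediate early genes and outputs of mitogen signalling were lower in replicate 3. Of 24 immediate early genes 8 were called lower (33.3%, against 5.2% of all genes) and 0 higher. The list median was -0.16 (-0.155 in shNT, -0.113 in shGLO1#1 and -0.221 in shGLO1#2). JUND, a subunit of the AP-1 transcription factor, was at 67.1, 56.8 and 59.4 CPM in replicate 1 and at 46.9, 43.5 and 44.2 CPM in replicate 3. The groups did not overlap (log2 difference -0.44, SE 0.06, adjusted p = 0.0004558). Its difference was -0.23 with the GC and length trend removed, the transcript having 69.7% GC. JUNB, of the same family, differed by -0.72 (SE 0.13), RHOB, a small GTPase, by -0.55, and ZFP36, an RNA decay factor, by -0.48. JUND and JUNB were called in each of the 9 fits. The calls of RHOB and ZFP36 were lost without shNT replicate 3 or either shGLO1#2 library. The list count was 4 without either of those shGLO1#2 libraries, 5 without shNT replicate 3 and 3 without all shGLO1#2 libraries. Over all genes, 147 were called lower without shGLO1#2 replicate 1 and 110 without shGLO1#2 replicate 3. That count was 241 without shNT replicate 3 and 14 without all shGLO1#2 libraries. The AP-1 motif TGANTCA was in 0 of 19 list promoters (4% of tested genes), and the cyclic AMP element TGACGTCA in 1 (2.89%).

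Of 24 ERK output and feedback genes, 6 were called lower (25%, against 5.2% of all genes) and 1 higher (4.17%, against 5.03%). The list median was -0.0618. Replicate 2 did not lie between the others, with a median difference of -0.132 from replicate 1 and of 0.0492 for replicate 3 from replicate 2, and the list's median deviation was lowest in replicate 2 in shNT (-0.0555) and shGLO1#2 (-0.0889). IER3, a survival gene induced by ERK, was at 198, 225 and 210 CPM in replicate 1 and at 155, 168 and 158 CPM in replicate 3, without overlap (-0.40, SE 0.06, adjusted p = 0.0007545). DUSP5, the nuclear phosphatase of ERK, was lower by 0.30 (SE 0.05) on the log2 scale. Both were called in all 9 fits. SPRED3 (-0.45) and SPRY4 (-0.22), inhibitors of RAS to ERK signalling, were called lower but lost their calls without either shGLO1#2 library of the contrast, and SPRY4 also without replicate 3 of shNT or shGLO1#1. The list count was 2 without shGLO1#2 replicate 3, and 3 without shGLO1#1 replicate 3 or shGLO1#2 replicate 1. It was also 2 without all shGLO1#2 libraries. Genes called lower over the whole set numbered 110, 353, 147 and 14 in these fits, in that order.

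**Figure D2:**
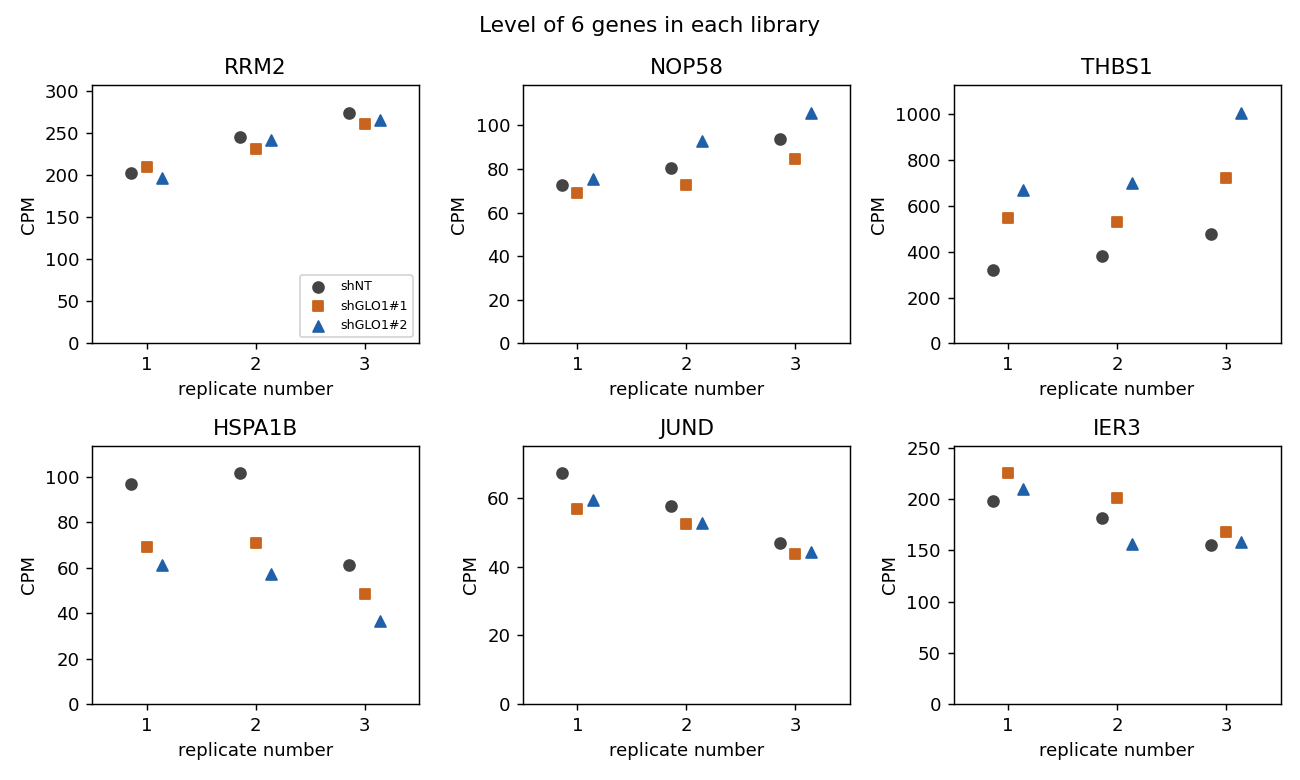
CPM (y axis, from 0) of RRM2, NOP58, THBS1, HSPA1B, JUND and IER3 in the 9 libraries, by replicate number (x axis), with 1 point for each library and a colour and shape for each condition. Replicate 3 is above replicate 1 in each condition for the first 3 genes and below it for the last 3, and HSPA1B of replicate 2 stays at 57.4 to 101 CPM, near replicate 1.

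**Figure D3:**
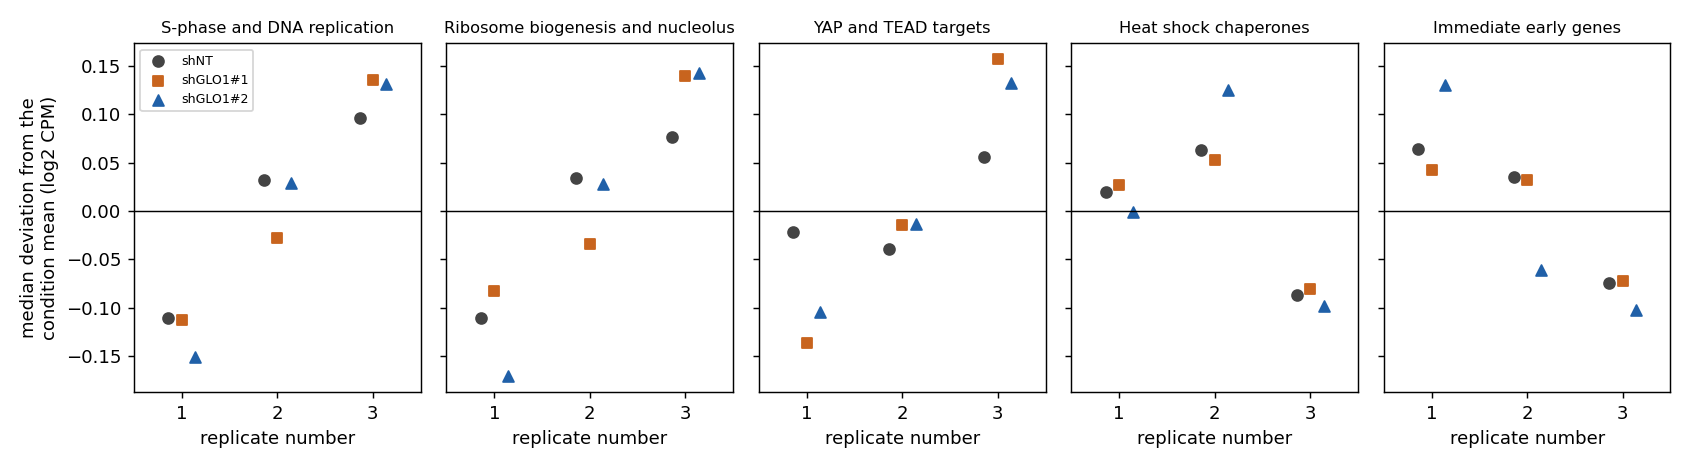
For 5 gene lists, the median deviation of the members' log2 CPM from their condition mean (y axis) is plotted for each library by replicate number (x axis). Replicate 3 is the highest in each condition for S phase (0.0965 to 0.135), ribosome biogenesis and YAP targets and the lowest for heat shock chaperones (-0.0986 to -0.0805) and immediate early genes, and replicate 2 is the highest for heat shock chaperones.

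Other stress and metabolic lists were mixed. Of 22 genes of the unfolded protein response 5 were called lower (22.7%, against 5.2% of all genes) and 0 higher. DESeq2 called 2 of them lower, 1 of the 5 was called in all 9 fits, and the list medians were 0.0342 in shNT, -0.154 in shGLO1#1 and 0.00173 in shGLO1#2. CREB3L2, a membrane-bound transcription factor of the endoplasmic reticulum, differed by -0.26 (SE 0.05) and was called in all 9 fits. The amino acid response had 4 of 35 called lower (11.4%, against 5.2%) and 1 higher (2.86%, against 5.03% of all genes). DESeq2 called 2 lower and 1 higher. DDIT4, an inhibitor of mTORC1, was at 134, 162 and 197 CPM in replicate 1 and at 98.6, 129 and 134 CPM in replicate 3 (-0.44, SE 0.06, adjusted p = 0.0007618). NDRG1, which hypoxia also induces, differed by -0.43, and its call was lost without either shGLO1#2 library. Of 23 glycolysis genes 2 were lower and 1 higher, and of 46 subunits of oxidative phosphorylation 1 was lower. NRF2 targets had 1 of 26 called higher (3.85%, against 5.03%) and 0 lower. Of 25 cholesterol synthesis genes 3 were called higher (12%, against 5.03% of all genes) and 0 lower. HMGCS1 (0.34) and INSIG1 (0.23) differed by only 0.04 and 0.07 in shGLO1#1, and neither was called without shNT replicate 3.

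Clock, hormone and autophagy genes were mixed. Of 17 clock genes 5 were called lower (29.4%, against 5.2% of all genes) and 3 higher (17.6%, against 5.03%). DBP, a clock output, was at 2.75 to 5.36 CPM in replicate 1 and at 1.77 to 2.51 CPM in replicate 3, without overlap (-0.95, SE 0.19). ARNTL, the activator BMAL1, differed by -0.38 and CRY1, a repressor, by 0.30. DESeq2 called 0 clock genes lower. No clock gene was called in each of the 9 fits. The count of lower ones was 0 without replicate 1 or 3 of shGLO1#2, 1 without shNT replicate 3 and 2 without shGLO1#1 replicate 3. Over all genes, 147, 110, 241 and 353 were called lower in these fits, in that order. KLF9, which glucocorticoids induce, was lower in every line (-0.67, SE 0.12) and was called in all 9. Of 26 lysosome and autophagy genes TFEB (-0.97), ULK1 (-0.48) and GABARAPL1 (-0.44) were lower (11.5%, against 5.2% of all genes) and 0 higher. TFEB, a regulator of lysosome genes, lost its call without replicate 1 or 3 of shNT or shGLO1#2. ULK1 lost its call without shNT replicate 3 or without replicate 1 or 3 of shGLO1#2, and GABARAPL1 without shGLO1#1 replicate 3.

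Matrix and interferon genes were mixed. Of 23 collagen chains 4 were called lower (17.4%, against 5.2% of all genes) and 0 higher. Of the 4, 0 were called in all 9 fits that left out 1 library. DESeq2 called 0 of the chains, and removal of the GC and length trend left 2 lower and 1 higher. The list medians were 0.0454, 0.0477 and -0.2 in shNT, shGLO1#1 and shGLO1#2. LAMA5, a laminin chain of basement membranes, was at 429, 449 and 469 CPM in replicate 1 and at 291, 366 and 285 CPM in replicate 3. The groups did not overlap (-0.53, SE 0.08), and the difference was -0.30 with the GC and length trend removed. AGRN, encoding agrin, differed by -0.27 and by -0.03 with that trend removed, when it was no longer called (adjusted p = 0.742). Of 39 interferon-stimulated genes 4 were called higher (10.3%, against 5.03% of all genes) and 3 lower (7.69%, against 5.2%). IFIT2, which binds viral RNA, was at 58.1, 155 and 91.7 CPM in replicate 1, 56.7, 156 and 97.0 CPM in replicate 2 and 82.8, 212 and 132 CPM in replicate 3. The log2 difference of replicate 3 from replicate 1 was 0.50 (SE 0.05, adjusted p = 3.55e-05), that of replicate 2 from replicate 1 was 0.02 (adjusted p = 0.9106), and IFIT3 had the same pattern (0.35 and 0.00).

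**Figure D4:**
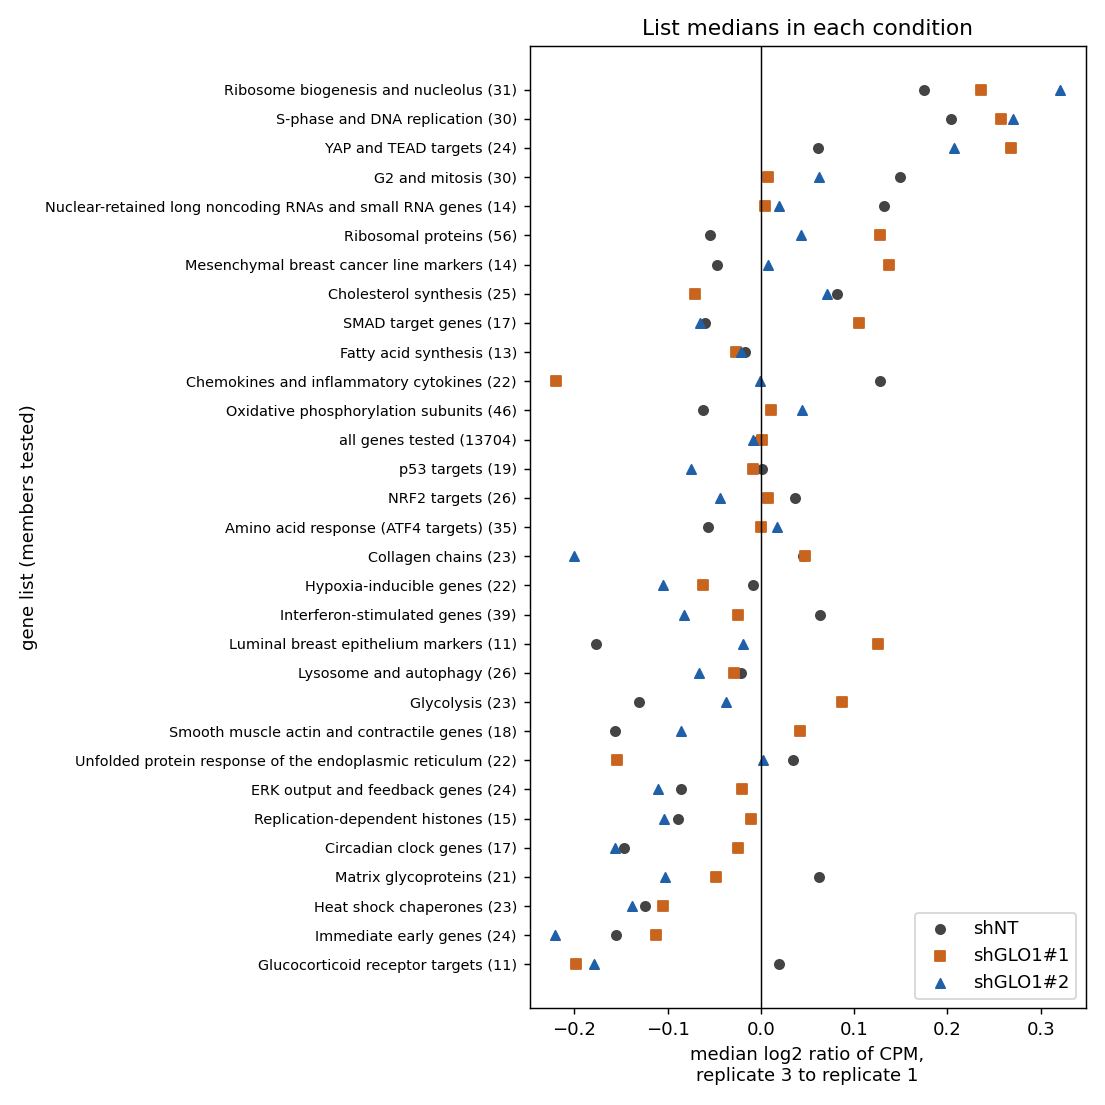
Median log2 ratio of CPM of replicate 3 to replicate 1 (x axis) for each list with at least 10 genes tested (y axis), with 1 point for each condition. The points lie at 0.175 to 0.321 for ribosome biogenesis and S phase and at -0.221 to -0.105 for heat shock chaperones and immediate early genes, while lists such as chemokines range from -0.22 in shGLO1#1 to 0.128 in shNT.

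Markers of other cell types were compared as well. Of the fibroblast, leukocyte, endothelial and luminal lists, 25 genes passed the filter, with 0 called higher and 4 lower (COL1A1, ESAM, ERBB3 and KRT19), against 5.2% of all genes lower. The summed level of 12 fibroblast markers was 17.3 to 25.3 CPM in replicate 1 and 16.1 to 18.3 CPM in replicate 3, that of 16 leukocyte markers 132 to 166 and 128 to 149 CPM, that of 10 endothelial markers 184 to 216 and 160 to 188 CPM, and that of 14 luminal markers 2014 to 2879 and 2145 to 2460 CPM. Among single marker genes, DCN, CDH5 and CD3E did not exceed 0.134, 0.122 and 0.0652 CPM in any library. Others were detected at higher levels. PTPRC, of the leukocyte list, was at 0.925 to 9.52 CPM, and LUM, encoding lumican, reached 5.37 CPM. The highest levels of VWF and CD14 lay between those of DCN and LUM. The part of these genes in the results was not tested.

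Some called genes did not move alike in the lines. For 28 of the 1401, 1 condition or more had the opposite sign, in shNT for 17, in shGLO1#1 for 12 and in shGLO1#2 for 0. COL11A1, a fibrillar collagen chain, was at 35.2 CPM in replicate 1, 11.8 CPM in replicate 2 and 17.4 CPM in replicate 3 of shGLO1#2, and at most 0.554 CPM in the other lines. Its fitted difference of -0.86 was no longer called without replicate 1 or replicate 3 of shGLO1#2, when the difference was 0.52 or 0.02. MAGEC2, a cancer-testis antigen, and IGSF3, an immunoglobulin-type membrane protein, were likewise near the detection limit in shNT (at most 1.77 and 0.587 CPM) and lower in replicate 3 in both GLO1-depleted clones. MAGEC2 was no longer called without replicate 1 or replicate 3 of shGLO1#2, nor by DESeq2 (adjusted p = 0.559). IGSF3 lost its call without shGLO1#2 replicate 1.

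The difference between numbers also went with the base composition of the transcripts. Genes called lower had a median GC content of 56.4% and those called higher 44.3%, against 48.3% over all genes. The log2 ratio correlated with GC content across genes by -0.316 in shNT and -0.213 in shGLO1#2 but by 0.0645 in shGLO1#1. In the tenth of genes richest in GC, the median log2 ratio was -0.249 in shNT, 0.00442 in shGLO1#1 and -0.169 in shGLO1#2. With the trend removed, the higher and lower genes had medians of 49.2 and 48.7% GC. The main list counts were then 23 of 30 for S phase, 22 of 31 for ribosome biogenesis and 14 of 24 for YAP targets, all higher. They were 7 of 23 for chaperones and 7 of 24 for immediate early genes, all lower. Over all 13704 genes the counts shifted the same way, with 1050 higher and 599 lower in place of 689 and 712.

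**Figure D5:**
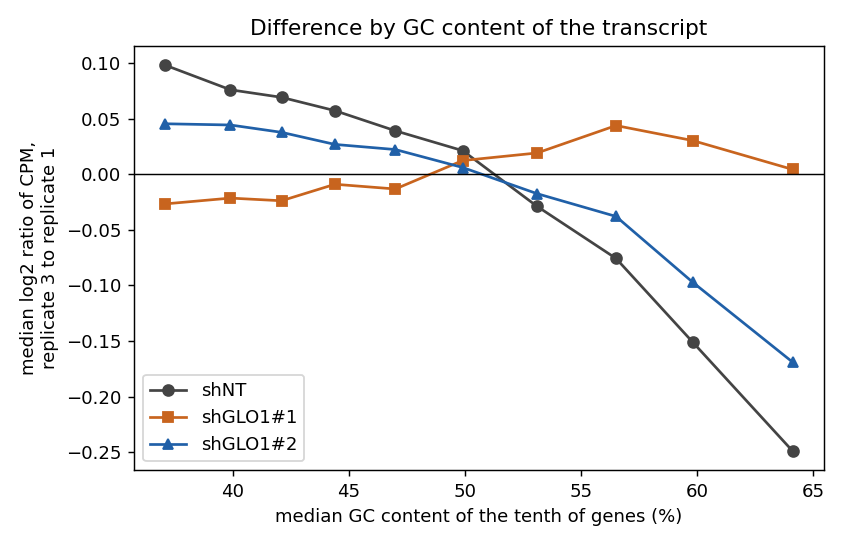
Median log2 ratio of CPM of replicate 3 to replicate 1 (y axis) in 10 equal groups of genes by transcript GC content (x axis, in percent), with 1 line for each condition. The lines of shNT and shGLO1#2 fall to -0.249 and -0.169 in the group richest in GC, and that of shGLO1#1 stays between -0.0266 and 0.0439.

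The replicate number took up much of the spread within a line. The common biological coefficient of variation, the typical relative spread between libraries of a condition beyond counting error, was 0.0706 with condition alone in the model and 0.0481 with the replicate number added.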

How the data were processed

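RNA of 9 MDA-MB-231 libraries was sequenced after TruSeq preparation. Per the labels, the authors used bcl2fastq 2.17, TopHat2 2.1.1 on hg19, and HTSeq, for which no version, annotation or strand setting was found in the labels or methods. The deposited values are raw counts of 26364 gene symbols. The summary rows (20.5 to 22.9% of alignments) were left out.

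The counts were tested with edgeR 4.0.16 in R 4.3.3, after filterByExpr (minimum count 10, total 15) and TMM scaling. One quasi-likelihood model of all 9 libraries held condition and replicate number, leaving 4 residual degrees of freedom. Within-condition ratios used a prior count of 2. The SE is the absolute log2 difference over the square root of F. The code was tested on simulated data.

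The comparison and the 37 gene lists were chosen with earlier results of these data known. Named genes were the leading 15 called higher and 15 lower with 1 sign in all conditions and a mean of at least 1 CPM where higher, ranked by the smallest within-condition difference, up to 4 called members of each list (otherwise 2 of smallest p), GLO1, and up to 5 called genes of opposite signs. Some named genes are not reported here.

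GC content and length came from GENCODE transcripts (97.6% of genes), promoters from RefSeq (GRCh38.p14) by symbol. Alternatives were DESeq2 1.42.0, RLE size factors, other filters, 6 libraries, no condition term, leaving out each library or condition and, chosen after seeing the data, removal of GC and length trends.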

Additional observations from a re-analysis of the deposited data

Results flagged for a closer look

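COL11A1 and MAGEC2 stood out among the named genes because the within-condition log2 difference of replicate 3 from replicate 1 exceeded 0.5 upwards in one line and downwards in another. For COL11A1 it was 0.79 in shNT, 0.083 in shGLO1#1 and -1.01 in shGLO1#2. For MAGEC2 it was 0.83 in shNT, -0.98 in shGLO1#1 and -0.93 in shGLO1#2. The shNT ratios rest on at most 0.554 CPM of COL11A1 and 1.77 CPM of MAGEC2. Each of these genes lost its call without replicate 1 or replicate 3 of shGLO1#2. The difference between lines was not tested.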

How the results depend on the processing

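RLE size factors and a minimum mean of 1 CPM left the counts of called genes within 1.5 times, as did the 6 libraries alone for replicate 3 against 1. The G2 and mitosis count went from 6 to 3 with the 6 libraries. DESeq2 called 810 genes (343 lower), 1 past the fold limit, 230 for replicate 3 against 2, 668 for any difference between numbers and 0 clock genes lower. Without a filter on low counts, replicate 2 against 1 gave 363 genes, replicate 3 against 2 gave 802 and any difference 1945. With no condition term, where differences between the lines count as spread, every count of called genes and list members was 0. With GC and length trends removed, 1050 genes were higher, and replicate 2 against 1 and 3 against 2 gave 99 and 542. Leaving out 1 library or 1 condition gave ranges of 34 to 2280 called genes, 20 to 1049 higher, 14 to 1231 lower and 0 to 57 past the fold limit. The ranges were 1 to 682 for replicate 2 against 1, 9 to 805 for replicate 3 against 2, 12 to 2249 for any difference, 2 to 21 for S phase, 1 to 23 for ribosome biogenesis, 0 to 13 for YAP targets, 1 to 10 for chaperones, 3 to 9 for immediate early, 2 to 9 for ERK and 0 to 5 for clock genes. The lowest count of called genes came without the 3 shGLO1#2 libraries, which leaves 2 conditions. The low end of each list range was also reached in that fit. Beyond the fewer libraries, the cause of these shifts was not tested. Directions of named genes turned for MLXIP (0.0078, GC and length trends removed) and, over the fits that left out libraries, COL11A1 (-0.967 to 0.5175), MTRNR2L2 (-0.1013 to 0.0011), MTRNR2L1 (-0.3126 to 0.0469) and GLO1 (-0.0309 to 0.0265). MLXIP, MTRNR2L2, MTRNR2L1 and GLO1 were not called. Of the 131 named genes, 28 of 97 with an adjusted p from DESeq2 lost their call there, 12 lost it with the GC and length trends removed, and 2 to 76 without a single library. Depth limits ratios such as that of NYAP1, at 0.310 CPM in its lowest library. With the replicate block, the coefficient of variation was 0.0481, and 7393 and 6397 genes were called for shGLO1#1 and shGLO1#2 against shNT, in place of 6267 and 5221. Same-numbered libraries correlated by -0.0339 to 0.341, not over 0.1 in every pair, and 8 of 9 libraries correlated best with their own number, a hint from the data only.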
